A study of Homo sapiens with 12 samples.

Results

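HOX cluster genes are homeobox genes that encode DNA-binding transcription factors. They were taken by name alone, as the protein-coding genes whose symbol is HOXA, HOXB, HOXC or HOXD followed by a number, with HOXB taken from HOXB1 to HOXB9. This gave 38 of the 38611 genes listed, 11 in the HOXA cluster and 9 each in HOXB, HOXC and HOXD. Their RNA was measured in DU145 and PC3, established lines of androgen-insensitive human prostate carcinoma, DU145 from a brain metastasis and PC3 from a bone metastasis. Each line was present as untreated parental cells, labelled control, and as a resistant line derived from it in docetaxel, a taxane that stabilises microtubules and blocks mitosis. Selection started at 10 nm/ml for DU145 and 0.5 nm/ml for PC3, in the unit the submitters wrote, and was raised by doubling until the half-maximal inhibitory concentration was 1800 nm/ml for DU145 and 15 nm/ml for PC3. The 4 groups had 3 libraries each and shared the same serum-containing medium and antibiotics. The labels do not say whether a resistant line was a clone, whether the drug was present at harvest or whether the 3 libraries of a group are separate cultures. The p-values therefore describe only variation among these libraries, and that variation may be technical.

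In vertebrates, HOX genes specify position along the body axis, and within a cluster the genes at the 3′ end act anteriorly and those at the 5′ end posteriorly. Paralogs, the genes with the same number in different clusters, descend from a common ancestor and have related roles. Their proteins bind DNA together with TALE homeodomain partners, the PBX and MEIS families. Polycomb complexes keep the clusters silent and trithorax complexes keep them active, and adult epithelia, the prostate and its carcinomas among them, retain HOX codes that reflect their origin along the axis.

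In the deposited coordinates, HOXA ran over 107 kb of chromosome 7 (27092993 to 27200091, minus strand), HOXB over 105 kb of chromosome 17 (48528526 to 48633572, minus strand), HOXC over 116 kb of chromosome 12 (53938831 to 54055327, plus strand) and HOXD over 98.2 kb of chromosome 2 (176092721 to 176190907, plus strand). These positions are on GRCh38. The genes lay so densely that 32 of 38 overlapped the span of another gene, 24 of them a gene on the opposite strand, and the strand setting of the counting is not given in the sources used here. Levels and changes of those 32 are therefore uncertain, since reads of an overlapping gene may have been assigned to them. The exceptions were HOXA2, HOXA7, HOXB1, HOXC12, HOXD13 and HOXD12. In the GENCODE v29 annotation HOXA7 does overlap a gene on the opposite strand, HOXA-AS3. HOXC4, HOXC5 and HOXC6 have alternative starts upstream of their neighbours, and HOXD3 starts upstream of HOXD4. Order by start position therefore departs in places from order by number in those clusters. HOXB7 as annotated spans HOXB8 and HOXB9, with HOXB still in number order.

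Promoter sequence was matched by symbol for 20 of the 38 genes, with 27 annotated starts, in the RefSeq table on GRCh38.p14. The 250 bases before each start held a median of 19 CpG dinucleotides, against 11 over all 35116 windows of that length. HOXA3 and HOXA10 had more than 1 window each. HOXB had only the window of HOXB1 and HOXC only those of HOXC4 and HOXC5, so the windows describe mainly HOXA and HOXD. The stretches below are those of 3 genes whose levels the following paragraphs turn on in HOXA and of their neighbour HOXA6, cut to the part that no exon in the GENCODE v29 annotation covers. They run 5′ to 3′ with CpG in capitals.
HOXA2, chr7:27102812-27102933, minus strand: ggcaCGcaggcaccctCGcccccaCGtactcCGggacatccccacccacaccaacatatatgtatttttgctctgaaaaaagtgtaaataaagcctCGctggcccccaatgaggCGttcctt
HOXA6, chr7:27147775-27148024, minus strand: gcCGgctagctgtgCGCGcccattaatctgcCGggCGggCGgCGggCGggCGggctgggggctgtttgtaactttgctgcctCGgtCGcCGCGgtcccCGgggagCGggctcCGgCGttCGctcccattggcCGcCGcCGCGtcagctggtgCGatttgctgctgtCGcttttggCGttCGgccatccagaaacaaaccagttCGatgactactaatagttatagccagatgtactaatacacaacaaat
HOXA9, chr7:27165538-27165787, minus strand: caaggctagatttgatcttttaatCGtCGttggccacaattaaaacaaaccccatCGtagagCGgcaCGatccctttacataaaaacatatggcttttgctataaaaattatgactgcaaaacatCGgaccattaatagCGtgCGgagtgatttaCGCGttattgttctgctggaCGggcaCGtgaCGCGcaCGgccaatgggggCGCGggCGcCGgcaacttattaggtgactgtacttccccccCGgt
HOXA13, chr7:27200107-27200341, minus strand: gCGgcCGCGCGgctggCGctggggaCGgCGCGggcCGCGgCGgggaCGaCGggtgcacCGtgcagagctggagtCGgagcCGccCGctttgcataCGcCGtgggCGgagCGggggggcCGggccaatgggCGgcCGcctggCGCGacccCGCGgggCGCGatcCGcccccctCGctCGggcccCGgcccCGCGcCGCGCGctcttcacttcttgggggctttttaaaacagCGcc
The HOXA13 window held 40 CpG, a number reached by 2.16% of all windows, and that of HOXA2 held 8. Of the 27 windows, 18 (66.7%) held CCAAT on either strand, the CCAAT box, against 32.0% of all windows. TATAAA was present in 5 (18.5% against 10.7%), GGGCGG, the GC box, in 13 (48.1% against 42.6%), and TGATNNAT, a HOX-PBX type motif, in 3 (11.1% against 6.47%). None of the searched motifs is contained in another. A match is a description of letters and not a site. The windows before HOXC4 and HOXC5 were the same 250 bases, chr12:54016638-54016887, so a shared start cannot be assigned to either gene.

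Depth lay between 62513103 and 72530254 counts per library. No 2 libraries of a group were identical, and they differed by a chi-square per gene of 14.2 to 37.4, the highest values being those of the first library of resistant PC3 against the others of its group. Leaving that library out ended 2 HOX calls between resistant and parental PC3, those of HOXB6 and HOXC4. The line labels were checked against CTNNA1, a catenin known to be missing in PC3, which stood at 42.7 to 60.8 FPKM (fragments scaled to gene length and library total) in the DU145 libraries and at 0.239 to 0.388 in PC3. Epithelial markers (KRT8, KRT18, EPCAM, CDH1) summed to 162 to 167 FPKM in parental and 319 to 325 in resistant DU145, and to 105 to 112 in parental and 61.0 to 63.4 in resistant PC3. None of 5 leukocyte markers reached 1 FPKM in any group. Of 6 fibroblast and smooth muscle markers 2 reached it in parental PC3, where the list summed to 12.8 to 13.5 FPKM against at most 2.93 elsewhere, and the 3 endothelial markers summed to 2.26 to 3.76 FPKM in PC3 and to at most 0.123 in DU145. The part of these differences in the HOX results was not tested.

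Of the 38 HOX genes, 17 were expressed, meaning a mean of at least 1 FPKM, in parental DU145 and 19 in resistant DU145, and 13 and 14 in parental and resistant PC3. Between 62.2% and 64.0% of all 17313 protein-coding genes passed the same level. Expression in all 4 groups was found for HOXA3, HOXA5, HOXA10, HOXA11, HOXB5 and HOXB6. Another 6, among them HOXB4, HOXB7, HOXB8, HOXC10 and HOXC9, reached it in both DU145 groups and in neither of PC3, and 4 (HOXA4, HOXA9, HOXA13, HOXD4) in both PC3 groups and neither of DU145. The 12 that reached it nowhere included 7 of the 9 HOXD genes. The map of levels by position shows each library.

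**Figure D1:**
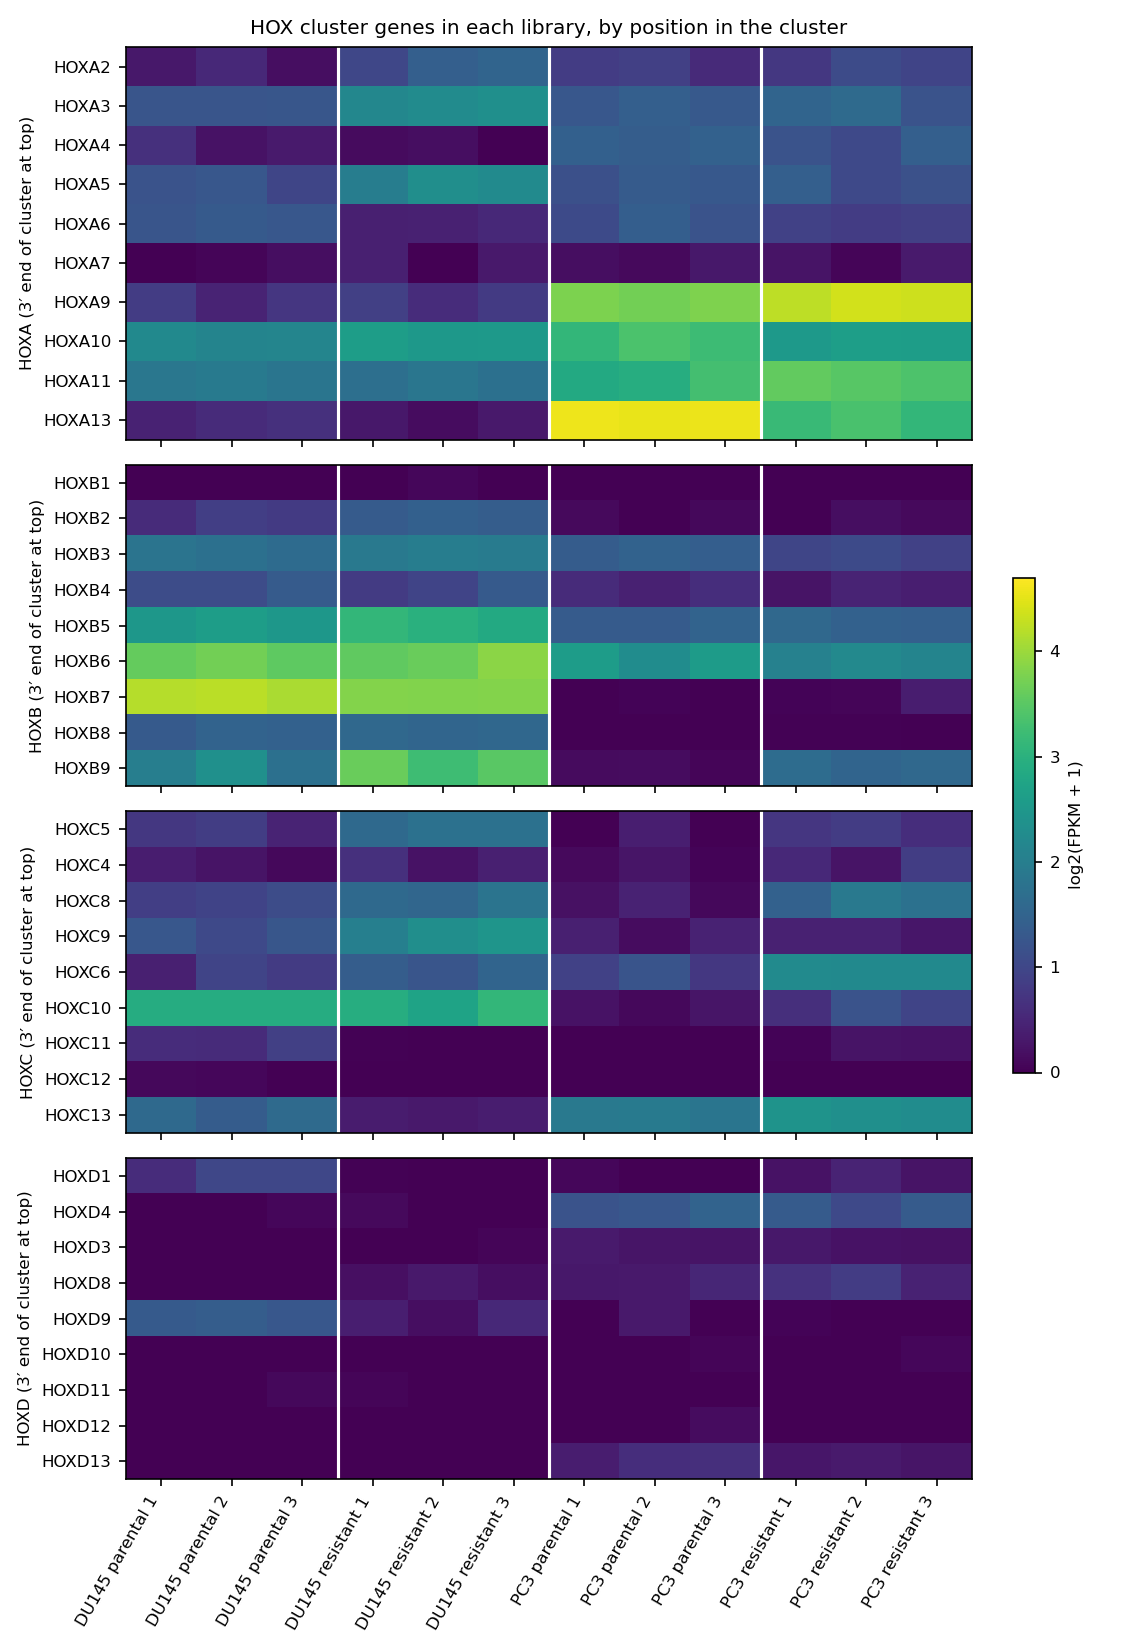
Level of 37 HOX genes (rows, by start position with the 3′ end of each cluster at the top) in each of the 12 libraries (columns), as log2(FPKM + 1) on the colour scale. HOXA9 to HOXA13 are brightest in the PC3 libraries, HOXB5 to HOXB7, HOXB9 and HOXC10 in DU145, and most HOXD rows are dark throughout.

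The summed levels of HOXA and HOXB separated the lines more than they separated parental from resistant cells. That order did not hold for HOXA over the 2 members that overlap no other gene in the deposited coordinates (0.330, 1.71, 0.854 and 1.08 FPKM in parental and resistant DU145 and parental and resistant PC3). HOXA summed to 13.1 ± 0.22 FPKM (SD, n = 3) in parental DU145 and to 58.2 ± 1.46 in parental PC3, 4.44 times as much. HOXB went the other way, 42.1 ± 2.56 FPKM in parental DU145 and 8.55 ± 0.77 in parental PC3, 4.93 times less in PC3. In resistant DU145 the HOXA sum was 22 ± 1.07 and the HOXB sum 49.7 ± 2.13 FPKM. Resistant PC3 had 49.8 ± 1.47 for HOXA and 8.72 ± 0.18 for HOXB, the latter within the spread of its parental libraries. HOXC summed to 12.8 ± 0.34 FPKM in parental and 17.2 ± 2.02 in resistant DU145, and to 4.50 ± 0.64 in parental and 12.6 ± 0.71 in resistant PC3, 2.79 times the parental sum. HOXD was the lowest cluster in every group, 2.41 ± 0.32 FPKM in parental and 0.538 ± 0.14 in resistant DU145, 2.65 ± 0.51 in parental and 2.66 ± 0.14 in resistant PC3. Libraries of parental and resistant cells did not overlap for HOXA, HOXB, HOXC or HOXD in DU145, nor for HOXA and HOXC in PC3, and they overlapped for HOXB and HOXD in PC3. A sum follows its highest genes, so it was described and not tested. Fewer cells expressing a gene and less RNA per cell cannot be told apart in such bulk libraries.

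**Figure D2:**
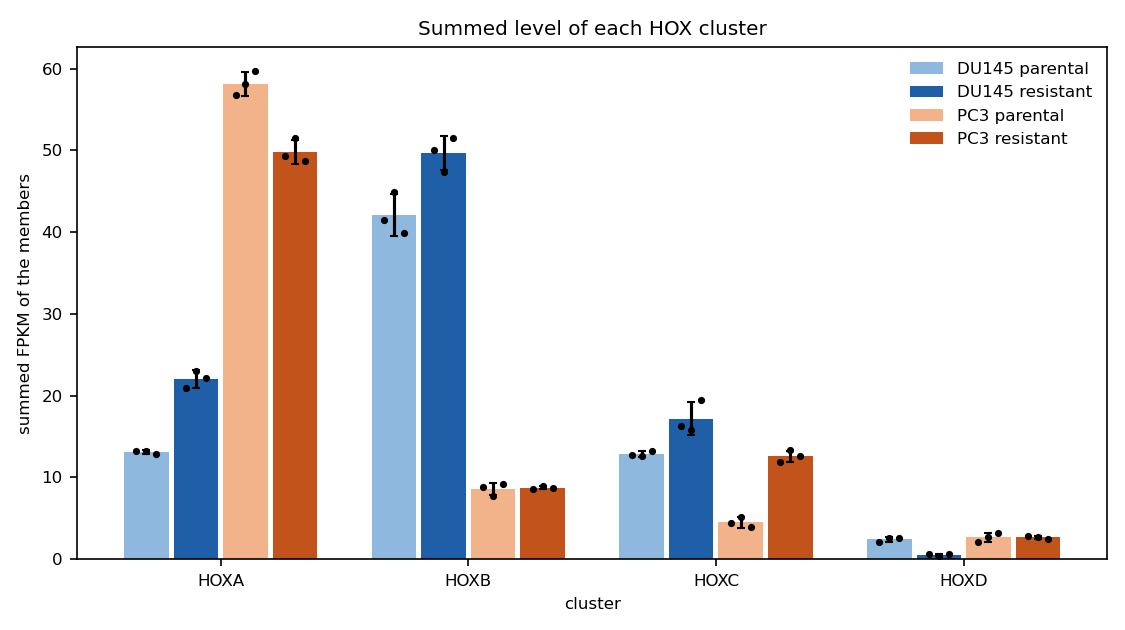
Summed FPKM of the member genes of each cluster (vertical axis, linear from 0) in the 4 groups. Bars are means of 3 libraries, error bars are SD and points are libraries. HOXA at 58.2 FPKM in parental PC3 and HOXB at 49.7 in resistant DU145 are the tallest bars of the PC3 and DU145 groups, and HOXC is the cluster in which resistant PC3 stands furthest above parental PC3 as a ratio.

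Split by paralog number, the 8 anterior genes (numbers 1 to 3) summed to 6.66 ± 0.52 FPKM in parental and 14.2 ± 1.17 in resistant DU145, and to 4.68 ± 0.40 and 5.08 ± 0.71 in PC3. The 15 central genes (4 to 8) summed to 41.5 ± 1.95 and 46.0 ± 2.12 FPKM in DU145 and to 14.5 ± 0.63 and 18.4 ± 0.51 in PC3. The 15 posterior genes (9 to 13) summed to 22.3 ± 0.36 and 29.3 ± 2.49 FPKM in DU145 and to 54.7 ± 1.70 and 50.3 ± 1.93 in PC3. Parental and resistant libraries did not overlap in any of the 3 zones in DU145, nor for central and posterior genes in PC3, and they overlapped for anterior genes in PC3.

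The comparison of the parental lines describes the HOX background in which resistance was selected. Of the 33 HOX genes that passed the filter on low counts, 11 were higher and 15 lower in PC3 (edgeR's quasi-likelihood test, Benjamini-Hochberg adjusted p under 0.05 over 24128 genes), where 60.3% of all genes tested were called (30.9% higher, 29.5% lower). HOXB1, HOXC12, HOXD12, HOXD11 and HOXD10 did not pass the filter. The median log2 difference was -0.44 over the 33 and 0 over all genes. All 8 HOXB genes tested were lower in PC3, and 6 of 11 HOXA genes were higher and 1 lower. HOXC had 1 higher and 4 lower of 8, and HOXD 4 higher and 2 lower of 6.

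In HOXA the largest differences were at HOXA13 and HOXA9, on the 5′ side. HOXA13, which patterns the hindgut, the distal limb and the urogenital tract including the prostate, had 0.367, 0.495 and 0.580 FPKM in parental DU145 and 23.1, 22.5 and 22.7 in parental PC3, a log2 difference of 5.61 ± 0.19 (SE, adjusted p = 1.18e-11). It was the highest of the 38 genes in parental PC3, and no library of either line came near the other line. HOXA9, a regulator of blood progenitors, had 0.793, 0.386 and 0.680 FPKM in parental DU145 and 12.6, 11.9 and 12.8 in parental PC3 (log2 difference 4.37 ± 0.22). HOXA10 and HOXA11, which act in the reproductive tract, were also higher in PC3, by 1.33 ± 0.10 and 1.48 ± 0.14 on the log2 scale. Further 3′, HOXA4 (2.35 ± 0.65) and HOXA2 (1.41 ± 0.44) were higher in PC3 too, and HOXA3, HOXA5 and HOXA6 were not called (0.22, 0.24 and -0.04). The HOXA2 call was lost without the third parental DU145 library (1.05, adjusted p = 0.0565).

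HOXB ran the other way. HOXB7, implicated in growth of several carcinomas, had 17.1, 17.6 and 16.2 FPKM in parental DU145, the highest of the 38 genes there, and 0, 0.0306 and 0 in parental PC3. With 3 counts in all of parental PC3, the ratio of summed counts was 1.69e+03, with a 95% interval of 579 to 8.22e+03 for counting error. HOXB8, its neighbour, had 1.51, 1.81 and 1.76 FPKM in parental DU145 and no count in parental PC3, at least 266-fold lower with the floor set at 3 counts summed over its libraries. HOXB9, a thoracic patterning gene, had 3.05, 4.13 and 2.34 FPKM in parental DU145 and 0.103, 0.108 and 0.0478 in parental PC3 (-5.15 ± 0.29). HOXB2, near the 3′ end, was also far lower (-3.63 ± 0.95), and HOXB3 (-0.44 ± 0.11) and HOXB6 (-1.22 ± 0.12) differed less. HOXB6 remained the highest of the 9 HOXB genes taken in PC3, at 5.04, 3.85 and 5.01 FPKM against 11, 11.9 and 10.6 in parental DU145. The HOXB libraries of the lines did not overlap for any of the 8 genes, and the share of all genes without overlap was not computed. Of all genes tested, 60.3% were called in this comparison, 29.5% of them all as lower in PC3. Counts varied more between libraries than independent counts would, so intervals and bounds cover counting error alone and may be too narrow.

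In HOXC, HOXC10, a lumbar and hindlimb gene, had 6.49, 6.54 and 6.56 FPKM in parental DU145 and 0.168, 0.0785 and 0.209 in parental PC3 (log2 difference -5.37 ± 0.34). HOXC9 and HOXC8, which specify thoracic motor neurons and skeleton, were both lower in PC3 by 2.20 on the log2 scale (SE 0.40 and 0.42). HOXC11 had no count in parental PC3 and 0.503, 0.486 and 0.853 FPKM in parental DU145, at least 131-fold lower. HOXC13, a hair follicle regulator at the 5′ end, was the exception, with 0.55 ± 0.19 higher in PC3 (adjusted p = 0.017). That call was lost without the second library of parental DU145 (0.41, adjusted p = 0.0996) or of parental PC3 (0.51, adjusted p = 0.0608).

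HOXD was mostly silent, and its expressed gene differed between the lines. HOXD9 had 1.52, 1.63 and 1.43 FPKM in parental DU145 and 0, 0.257 and 0 in parental PC3 (log2 difference -4.10 ± 1.33, adjusted p = 0.0174). HOXD4 had 0, 0 and 0.0563 FPKM in parental DU145 and 1.29, 1.42 and 1.82 in parental PC3 (6.30 ± 1.09, adjusted p = 1.05e-04). HOXD13, HOXD8 and HOXD3 had no count in parental DU145 and between 0.188 and 0.557 FPKM in the parental PC3 libraries, at least 72.5-fold, 51.3-fold and 53.0-fold higher in PC3.

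Resistant and parental DU145 were compared to describe how the HOX genes differ between that line and the resistant line derived from it. Selection, cloning and drug present at harvest cannot be told apart in this comparison. Of the 33 genes tested, 13 rose, 6 fell and 14 were not called, 57.6% called, where 39.6% of all genes were called (18.9% higher, 20.7% lower). The median log2 difference was 0.51 over the 33 and 0 over all genes. The increases were spread over the 4 clusters. The decreases were those of HOXA4, HOXA6, HOXA13, HOXC11, HOXC13 and HOXD1, the last at the 3′ end of its cluster. By cluster, 5 of 11 HOXA genes rose and 3 fell, 3 of 8 HOXB rose and none fell, 3 of 8 HOXC rose and 2 fell, and 2 of 6 HOXD rose and 1 fell. Of the 13 that rose, 11 reached 1 FPKM in a DU145 group, and of the 6 that fell, HOXA6 and HOXC13 did.

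HOXA2, which patterns the hindbrain and second pharyngeal arch and overlaps no other gene, had 0.233, 0.456 and 0.130 FPKM in parental and 1.0, 1.67 and 1.87 in resistant cells (2.49 ± 0.45). Every resistant library lay above every parental library. HOXA3, needed for thymus and parathyroid, rose by 1.5 ± 0.17, from 1.37 ± 0.02 to 3.79 ± 0.25 FPKM, and HOXA5, a lung and thyroid regulator, by 1.56 ± 0.28, from 1.23 ± 0.24 to 3.58 ± 0.54. Their neighbours HOXA4 and HOXA6 went the other way. HOXA6 had 1.35, 1.52 and 1.43 FPKM in parental and 0.329, 0.340 and 0.453 in resistant cells, and fell by 1.91 on the log2 scale (SE 0.36, adjusted p = 4.52e-04). HOXA4, which lies between HOXA3 and HOXA5 and inside the annotated span of HOXA3, also fell. It went from 0.339 ± 0.20 to 0.0772 ± 0.07 FPKM (-2.10 ± 0.71). Its call was lost without the first parental library (-1.49, adjusted p = 0.144) and with only the DU145 libraries fitted (-2.09, adjusted p = 0.121). HOXA9 (0.20 ± 0.23) and HOXA11 (-0.14 ± 0.14) were not called. HOXA10 rose by 0.51 ± 0.10, with 3.67, 3.35 and 3.40 FPKM in parental and 5.14, 4.7 and 4.74 in resistant cells. HOXA13, already low, fell by 1.22 (SE 0.22).

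In HOXB the increase was largest at the 5′ end. HOXB9 went from 3.05, 4.13 and 2.34 FPKM to 11.3, 8.48 and 10.3, with a log2 difference of 1.68 ± 0.22 and an adjusted p of 1.23e-05. The resistant libraries lay above all parental ones. HOXB5 rose from 4.81 ± 0.30 to 6.93 ± 0.73 FPKM (0.55 ± 0.16), a call lost without the first resistant library (0.47, adjusted p = 0.0700), and HOXB3 from 2.33 ± 0.19 to 2.87 ± 0.11 (0.32 ± 0.11, adjusted p = 0.0311). The HOXB3 call was lost without parental library 2 or 3 or resistant library 2 or 3 (0.26 to 0.33, adjusted p from 0.0646 to 0.122). HOXB2 and HOXB7 had parental and resistant libraries that did not overlap yet were not called. HOXB2 had 0.484, 0.840 and 0.749 FPKM in parental and 1.56, 1.70 and 1.63 in resistant cells (1.26 ± 0.82, adjusted p = 0.262). HOXB7 had 17.1, 17.6 and 16.2 in parental and 13.3, 13.1 and 13.3 in resistant cells (-0.34 ± 0.36, adjusted p = 0.532). With only the DU145 libraries in the fit both were called, at an adjusted p of 0.00165 for HOXB2 and 0.00555 for HOXB7.

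HOXC13 carried the clearest decrease. It had 2.05, 1.57 and 2.07 FPKM in parental and 0.282, 0.245 and 0.293 in resistant DU145, and fell by 2.76 on the log2 scale (SE 0.21, adjusted p = 2.29e-08). HOXC11, further 3′, fell from 0.503, 0.486 and 0.853 FPKM to 0.0185, 0 and 0.0047, with 389 counts in the parental and 5 in the resistant libraries. HOXC10, next to it and the highest HOXC gene of DU145, was not called (0.05 ± 0.27), with 6.64, 5.65 and 7.64 FPKM in resistant cells. HOXC9 had 1.41, 1.06 and 1.38 FPKM in parental and 3.08, 4.03 and 4.47 in resistant cells, a rise of 1.61 ± 0.38 (adjusted p = 0.00274). HOXC6, often raised in prostate carcinoma, had 0.331, 0.940 and 0.763 FPKM in parental and 1.63, 1.35 and 1.87 in resistant cells (1.28 ± 0.31). HOXC8 had 0.838, 0.937 and 1.14 and then 2.06, 1.95 and 2.51 FPKM (1.19 ± 0.39, adjusted p = 0.0227). No parental and resistant libraries overlapped in these 3 genes. The HOXC8 call was lost without the first or second parental library or the third resistant library (1.07 to 1.16, adjusted p from 0.0631 to 0.0772). HOXC5 was not called in the full fit (0.627 ± 0.22 to 2.26 ± 0.20 FPKM, adjusted p = 0.152) and was called with only DU145 libraries (adjusted p = 3.38e-04).

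Every HOXD gene was under 1 FPKM in resistant DU145. HOXD1 fell from 0.521, 0.996 and 1.01 FPKM to 0.024, 0 and 0, a count ratio of 103 (95% interval 34.8 to 500). HOXD9, the highest HOXD gene of parental DU145, had 0.307, 0.125 and 0.451 FPKM in resistant cells against 1.43 to 1.63 in parental cells, without overlap. It was not called in the full fit (-2.35 ± 1.20, adjusted p = 0.153). It was called with only DU145 libraries (-2.33, adjusted p = 5.08e-04) and without the second parental PC3 library (-2.35, adjusted p = 0.0209). HOXD8 had no count in parental and 0.144, 0.250 and 0.134 FPKM in resistant cells, at least 30.0-fold higher. HOXD3 was called on 12 counts, all in the third resistant library, and lost the call without any of 10 of the 12 libraries.

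**Figure D3:**
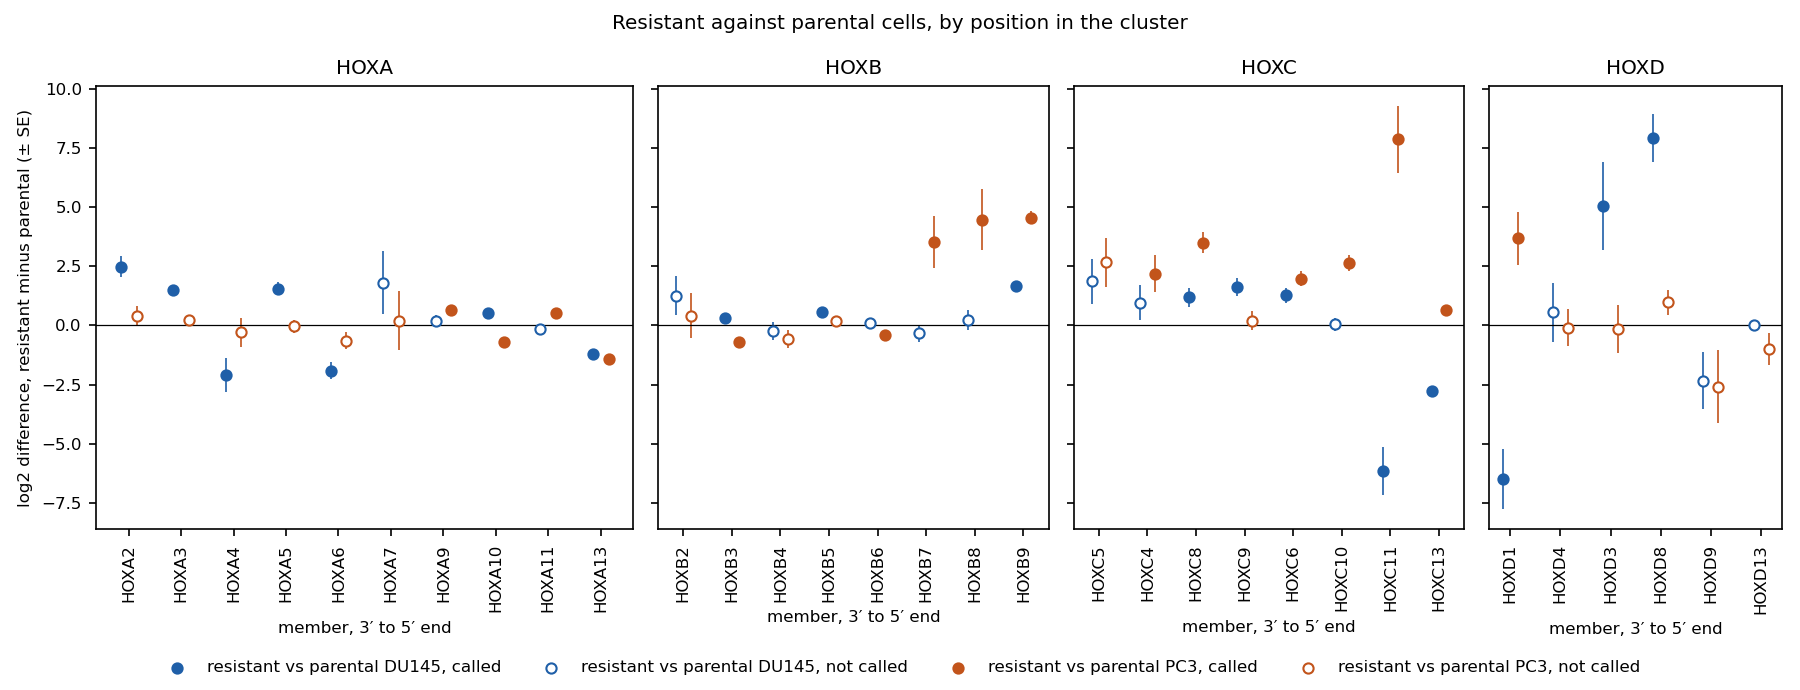
Log2 difference, resistant minus parental (points, ± SE), of 32 tested HOX genes in DU145 (blue) and PC3 (orange), by start position from the 3′ end of each cluster; filled points were called. Genes near 0 counts in a group, such as HOXC11, HOXD1, HOXD3, HOXD8, HOXB7 and HOXB8, have values that depend on the prior count. Among the filled points above 0, those at HOXA2, HOXA3 and HOXA5 are blue alone, and HOXB9, HOXC6 and HOXC8 have both a blue and an orange one.

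In PC3 the same comparison called 13 of 33 HOX genes higher and 4 lower, 51.5%, where 44.0% of all genes were called (22.4% higher, 21.6% lower). The median log2 difference was 0.41 over the 33 and 0 over all genes. HOXC held 6 of the increases, with none of its 8 genes lower. HOXA had 3 higher and 2 lower of 11, HOXB 3 higher and 2 lower of 8, and HOXD 1 higher of 6. Of the 13 that rose, 6 reached 1 FPKM in a PC3 group, and all 4 that fell did.

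HOXB9 changed most among expressed genes, from 0.103, 0.108 and 0.0478 FPKM in parental to 2.15, 1.85 and 2.01 in resistant PC3 (log2 difference 4.56 ± 0.29, adjusted p = 2.25e-09). HOXC8 went from 0.165, 0.372 and 0.0767 to 1.75, 2.71 and 2.37 FPKM (3.51 ± 0.43), and HOXC6 from 0.867, 1.32 and 0.702 to 3.75, 3.66 and 3.66 (1.98 ± 0.32). For each of these 3 genes the resistant libraries lay above the parental ones. HOXC8 and HOXC9 lie within the annotated span of HOXC6, and HOXC9 was not called (0.21 ± 0.40, 0.270 and 0.304 FPKM). HOXC13 rose by 0.64 ± 0.18, from 2.74, 2.79 and 2.56 FPKM to 4.31, 4.09 and 3.85. HOXC10, under 1 FPKM in both PC3 groups, went from 0.152 ± 0.07 to 0.929 ± 0.38 FPKM (2.64 ± 0.33). HOXC11 had no count in parental cells and 0.0308, 0.190 and 0.173 FPKM in resistant cells, at least 28-fold higher. HOXC4 was called (2.19 ± 0.77, adjusted p = 0.0310) with overlapping libraries, and lost the call without parental library 1 or 3 or resistant library 1 or 3 (1.62 to 2.24, adjusted p from 0.0516 to 0.148).

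Within HOXA the 5′ genes moved apart. HOXA13 fell by 1.41 on the log2 scale (SE 0.15, adjusted p = 3.75e-06), from 23.1, 22.5 and 22.7 FPKM to 8.12, 9.19 and 7.64. HOXA11, next to it, rose by 0.53 ± 0.13 (7.23 ± 1.40 to 10.2 ± 0.73 FPKM). HOXA9, further 3′, rose by 0.65 ± 0.18, from 12.6, 11.9 and 12.8 to 17.9, 19.9 and 19.2. HOXA10, between them, fell by 0.70 (SE 0.10), from 7.65, 9.32 and 8.34 to 4.82, 5.19 and 5.17 FPKM. The parental and resistant libraries of these 4 genes did not overlap, and HOXA9 in place of HOXA13 was the highest of the 38 genes in resistant PC3. At the 3′ end HOXA2 (0.41 ± 0.43), HOXA3 (0.22 ± 0.17) and HOXA5 (-0.04 ± 0.27) were not called.

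HOXB3 had 1.57, 1.79 and 1.66 FPKM in parental and 0.988, 1.09 and 0.888 in resistant PC3, and fell by 0.72 (SE 0.11, adjusted p = 7.35e-05). HOXB6 fell by 0.41 (SE 0.12), from 4.63 ± 0.68 to 3.19, 3.66 and 3.36 FPKM in the resistant libraries. Its call was lost without parental library 1 or 3 or resistant library 1 (-0.37 to -0.35, adjusted p from 0.0546 to 0.0614). HOXB7 and HOXB8, called higher, rested on 40 and 8 counts in resistant cells against 3 and none. The HOXB8 libraries overlapped, and its call was lost with limma on log2(FPKM + 1) and log2(FPKM + 0.1) (adjusted p = 0.799 and 0.325). HOXB7 lost its call with limma on log2(FPKM + 1) (0.15, adjusted p = 0.147). It lost it as well without parental library 1 or 3 or the third resistant library (1.89 to 3.02, adjusted p from 0.0660 to 0.0759) and without the filter on low counts. HOXD1 rose from 7 to 94 counts, 0.0183 ± 0.03 to 0.245 ± 0.12 FPKM. HOXD4, the highest HOXD gene of PC3, was not called (-0.09 ± 0.78), with 1.54, 1.06 and 1.54 FPKM in resistant cells.

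Both lines were then set side by side. Among the members, 4 rose in both, HOXB9, HOXC6 and HOXC8 among them, 30.8% of the 13 that rose in DU145 and 30.8% of the 13 in PC3. HOXA13 fell in both, with means under 1 FPKM in parental and resistant DU145 (0.481 and 0.201). HOXA10, HOXB3, HOXC11, HOXC13 and HOXD1 were called in opposite directions. Of all genes that rose, 34.6% of those in DU145 and 29.2% of those in PC3 rose in both, so the members' share was near that of all genes. Over all genes tested, 6.90% fell in both and 12.1% were called in opposite directions. Another 9 HOX genes were called in DU145 alone, 7 in PC3 alone and 7 in neither. Of all genes tested, 39.6% were called in DU145, 44.0% in PC3 and 25.5% in both. The shares of all genes called in 1 line alone or in neither were not computed. The test of the difference itself (PC3 change minus DU145 change) called 16 of 33, 9 positive and 7 negative, 48.5% against 42.1% of all genes (22.1% positive, 20.0% negative). HOXB8 (4.25 ± 1.35) and HOXB7 (3.87 ± 1.15) had the largest values among genes that reached 1 FPKM in a group, on at most 3 counts in parental PC3. HOXC13 came next (3.40 ± 0.27, adjusted p = 5.42e-08), falling in DU145 and rising in PC3. HOXB9, which rose in both, rose more in PC3 on the log2 scale (2.88 ± 0.36), as did HOXC8 (2.33 ± 0.56). For HOXB9 the difference was 0.05 on the log2(FPKM + 1) scale with limma (adjusted p = 0.839), and its means went from 3.18 to 10.0 FPKM in DU145 and from 0.0862 to 2.00 in PC3. HOXA2 (-2.08 ± 0.61), HOXA3 (-1.28 ± 0.24) and HOXA5 (-1.60 ± 0.38) rose in DU145 and differed from their uncalled changes in PC3. For HOXC6 (0.70 ± 0.44, adjusted p = 0.228) and HOXA13 (-0.19 ± 0.27, adjusted p = 0.641) no difference between the lines was called. With limma on log2(FPKM + 1) it was called for both (HOXC6 0.62, adjusted p = 0.0244, and HOXA13 -1.05, adjusted p = 8.14e-06).

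**Figure D4:**
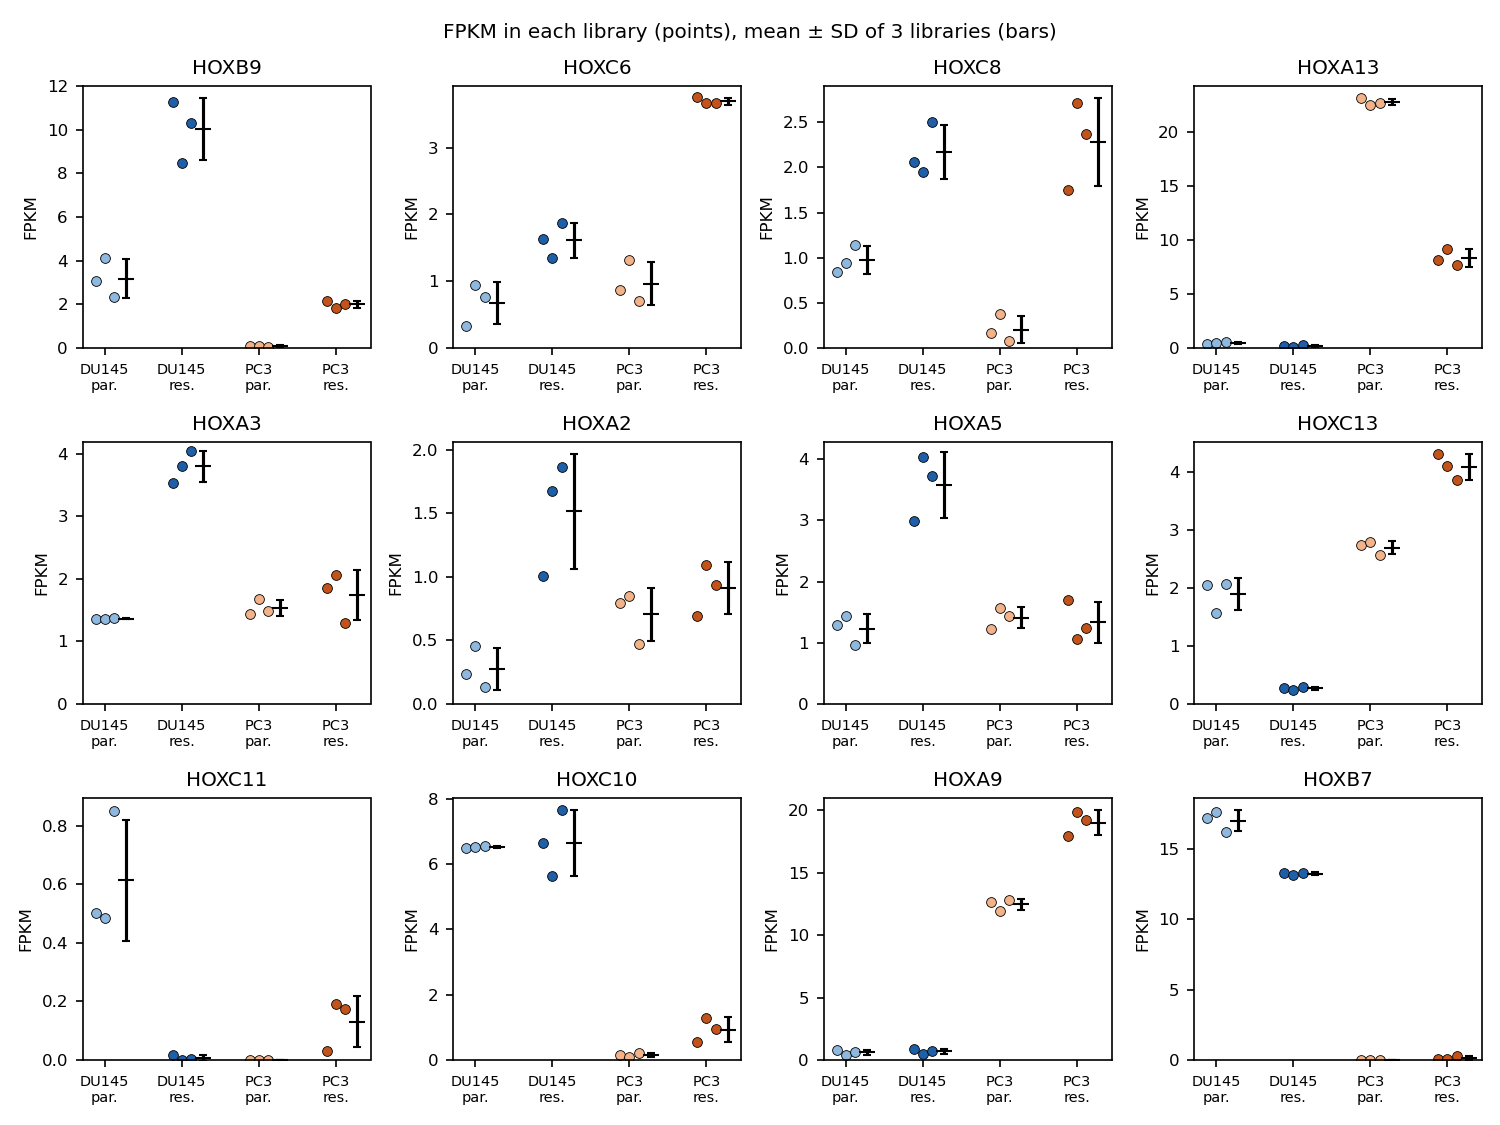
FPKM of 12 HOX genes in each of the 3 libraries (points) of the 4 groups, with mean ± SD bars; each panel has its own linear axis from 0. HOXB9, HOXC6 and HOXC8 stand higher in the resistant group of each line. HOXA13 stands lower, with means under 1 FPKM in both DU145 groups (0.481 and 0.201). HOXC13 lies below its parental group in resistant DU145 and above it in resistant PC3.

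The resistant lines also differed from each other across the clusters. Of 33 HOX genes, 13 were higher and 14 lower in resistant PC3 than in resistant DU145, 81.8% called against 59.8% of all genes (30.6% higher, 29.1% lower). All 8 HOXB genes were again lower in PC3, from -1.48 ± 0.12 for HOXB3 to -6.79 ± 0.59 for HOXB8. HOXB8 had 2.01, 1.89 and 1.97 FPKM in resistant DU145 and 0.0239, 0.0258 and 0 in resistant PC3. HOXB2 had 0, 0.126 and 0.0842 FPKM in resistant PC3 (-4.48 ± 0.96), and HOXB7 0.0379, 0.0408 and 0.290 (-6.64 ± 0.51). HOXA13 (5.42 ± 0.20) and HOXA9 (4.82 ± 0.22) were again far above DU145, whose resistant libraries held 0.230, 0.120 and 0.254 FPKM of HOXA13 and 0.862, 0.505 and 0.733 of HOXA9. HOXC13, with a mean of 4.09 FPKM against 0.273, was higher in resistant PC3 by 3.96 ± 0.21, and HOXD4 by 5.66 ± 1.04, with 0.0798, 0 and 0 FPKM in resistant DU145. HOXA3 and HOXA5, not called between the parental lines, were lower in resistant PC3 (-1.06 ± 0.17 and -1.36 ± 0.27). HOXC8 (0.13 ± 0.38) and HOXA10 (0.12 ± 0.10), called between the parental lines, were not called here.

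Noncoding genes of the clusters were read beside the members, because several run antisense to them. Of 16 tested, none rose and 6 fell in DU145, and 2 rose and 1 fell in PC3, against 39.6% and 44.0% of all genes called. HAGLR, which overlaps HOXD3 and lies beside HOXD1, fell from 3.02 ± 0.58 to 0.0631 ± 0.02 FPKM in DU145 (-5.55 ± 0.36), the line in which HOXD1 fell, and rose by 1.48 ± 0.30 in PC3. HOTAIR, opposite HOXC11, followed the direction of HOXC11 in each line, -2.46 ± 0.72 in DU145 and 4.85 ± 0.86 in PC3. It stayed under 1 FPKM in every group, 0.651 and 0.115 in parental and resistant DU145 and 0.0155 and 0.455 in PC3. The PC3 value rests on 4, 0 and 4 counts in the parental libraries. HOTTIP, opposite HOXA13, had 0.0154 ± 0.02 FPKM in parental DU145 and 3.11 ± 0.13 in parental PC3, and its change in resistant PC3 was not called (-0.70 ± 0.36, 1.87 ± 0.28 FPKM). For these pairs the counts of either strand cannot be told apart. HOXA11-AS moved against its partner. It fell in PC3 (10.3 ± 0.49 to 3.35 ± 0.12 FPKM, -1.59 ± 0.19) where HOXA11 rose. Other pairs had opposed means in DU145. HOXA-AS2 went from 1.13 ± 0.08 to 0.502 ± 0.11 FPKM, and of the 2 genes opposite it HOXA3 rose and HOXA4 fell. HOXB-AS1 went from 1.95 ± 0.18 to 1.13 ± 0.08 FPKM, opposite HOXB2 (not called) and HOXB3, whose means were higher in resistant cells.

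**Figure D5:**
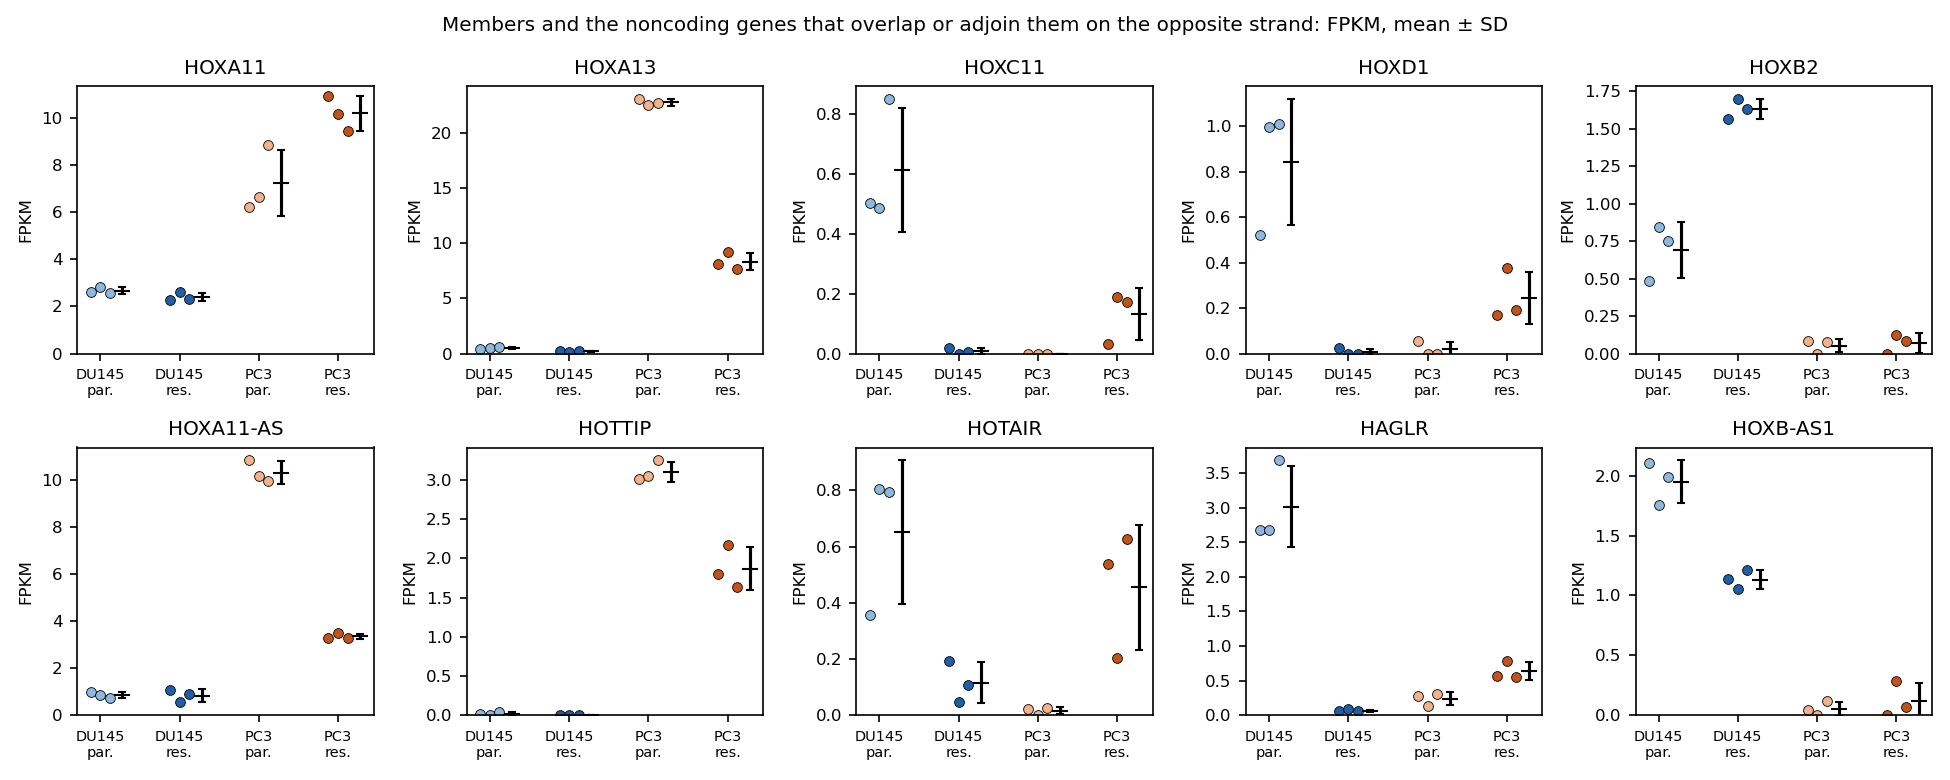
FPKM of 5 HOX genes (top) and of the noncoding gene beside or opposite each (bottom) in each of the 3 libraries (points) of the 4 groups, with mean ± SD bars, each panel on its own linear axis from 0. HOXA11 and HOXA11-AS move in opposite directions in PC3, and HOXB2 (not called) and HOXB-AS1 do so in DU145. HOXC11 and HOTAIR, and HOXD1 and HAGLR, move together.

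In the lists that follow, the calls stand against 18.9% higher and 20.7% lower of all genes in DU145 and 22.4% and 21.6% in PC3. Among 9 TALE partners tested, 4 rose and 2 fell in DU145 (39.6% of all genes called), and 3 rose and 4 fell in PC3 (44.0%). PBX2, the most abundant, stood at 20.7 ± 0.72 and 24.9 ± 0.73 FPKM in DU145 and fell from 24.4 ± 0.95 to 11.9 ± 0.69 in PC3. MEIS3 fell in DU145 (-2.17 ± 0.31) and rose in PC3 (2.95 ± 0.33, to 0.817 FPKM). Of 24 Polycomb genes, 4 rose and 13 fell in DU145, and 8 rose and 8 fell in PC3, where 39.6% and 44.0% of all genes were called. In DU145, the chromodomain subunits CBX8 (-1.11 ± 0.11) and CBX7 (-1.04 ± 0.09) fell and JARID2, a cofactor of the methylating complex, rose (0.97 ± 0.09). In PC3, CBX2 (1.9 ± 0.14) and EED, a core subunit (1.40 ± 0.09), rose, and CBX7 fell (-1.32 ± 0.09). Of 15 trithorax genes and demethylases, 6 rose and 5 fell in DU145 and 5 rose and 5 fell in PC3 (39.6% and 44.0% of all genes called), with KMT2A, the main HOX-activating methyltransferase, at 0.12 ± 0.04 and -0.32 ± 0.04. Retinoic acid induces 3′ HOX genes. Of 13 genes of its signalling tested, 4 rose and 2 fell in DU145, and 3 rose and 5 fell in PC3, where 39.6% and 44.0% of all genes were called. The synthesising enzyme ALDH1A3 rose in both, by 4.35 ± 0.18 (0.642 ± 0.22 to 12.8 ± 0.49 FPKM) and 0.82 ± 0.15 (74.2 ± 3.03 to 128 ± 1.09 FPKM). The retinaldehyde reductase DHRS3 rose by 4.91 ± 0.20 in DU145 and fell by 1.20 (SE 0.15) in PC3. CYP26B1, which degrades retinoic acid, fell by 1.97 (SE 0.33) in DU145. These lists were chosen with earlier results of these data known.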

How the data were processed

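The members, the related gene lists, the comparisons and the tests were chosen with earlier results of these data known. The authors deposited, per the file headers, 1 table per library with a whole-number read count and an FPKM value for each of 38611 genes. Per the labels' protocols, poly(A) RNA was made into dUTP-marked paired-end libraries. Tools listed in the submitters' processing notes, in no stated order, are HISAT2 2.0.4, StringTie 1.3.4d, cutadapt 1.9, edgeR and DESeq2, and the build listed is hg18. The coordinates are those of GRCh38 instead: all 38 members overlap their GENCODE v29 position and 11 have the same start and end. Which program counted reads, with which annotation release and strand setting, is not given in the sources used here.

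Levels are the deposited FPKM, as mean ± SD of 3 libraries. Differences were tested on the deposited counts of all genes with edgeR 4.0.16 in R 4.3.3 (filterByExpr, which left 24128 genes, TMM scaling, robust quasi-likelihood F test, 1 mean per group over 12 libraries, 8 residual degrees of freedom, Benjamini-Hochberg adjustment over the genes tested, called at an adjusted p under 0.05). The standard error is the log2 difference divided by the square root of F. Where a group had no count, the fold is a bound against 3 counts over the group, and where it had 1 to 3 counts, a ratio with a 95% interval. The procedure was tested on simulated data. Alternatives were RLE and upper-quartile scaling, DESeq2 1.42.0, other filters, only the groups compared, a replicate block, limma 3.58.1 on log2(FPKM + 1) and log2(FPKM + 0.1), and leaving out each library.

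Values per library are given, by rule, for up to 6 called members of largest log2 difference in each comparison among those with at least 1 FPKM in a group, and for the highest member of each cluster and group. Values of other members given by library were chosen after they were seen. Of the related lists, PKNOX2 and the 3 CDX genes were not matched in the files. A member gene and a partner gene are not reported here by name, while counts and sums over the lists include them.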

Additional observations from a re-analysis of the deposited data

Results flagged for a closer look

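By edgeR's test of PC3 change minus DU145 change with Benjamini-Hochberg adjustment, 42.1% of all genes tested were called (22.1% positive, 20.0% negative). The difference between resistant and parental cells was itself different between the lines for 16 of the 33 HOX genes tested (48.5%). It was positive, more upward in PC3, for HOXA11 (0.67 on the log2 scale), HOXB7 (3.87), HOXB8 (4.25), HOXB9 (2.88), HOXC8 (2.33), HOXC10 (2.59), HOXC11 (14.04), HOXC13 (3.40) and HOXD1 (10.19). It was negative for HOXA2 (-2.08), HOXA3 (-1.28), HOXA5 (-1.60), HOXA10 (-1.21), HOXB3 (-1.04), HOXB6 (-0.53) and HOXD8 (-6.94). HOXC11, HOXD1 and HOXD8 had a group with at most 7 counts in all, and HOXB7 and HOXB8 had at most 3 in parental PC3, so the size of these 5 values depends on the prior count. HOXC13, HOXA10, HOXB3, HOXC11 and HOXD1 were called in opposite directions in the 2 lines. HOXA2, HOXA3 and HOXA5 were called in DU145 and not in PC3, and HOXA11, HOXB6, HOXB7, HOXB8 and HOXC10 in PC3 and not in DU145. Leaving out 1 library ended the call of HOXB6 (library 3 of either DU145 group, parental PC3 library 1 or 3, or resistant PC3 library 1), of HOXB7 (parental PC3 library 1 or 3) and of HOXB8 (resistant PC3 library 1 or 2).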

How the results depend on the processing

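The strand setting, the overlaps and the origin of the libraries limit every value. Genes far below 1 FPKM rest on few counts, whereas HOXB3 at 0.988 FPKM in resistant PC3 had 1510. Over the settings that kept all libraries, the number of members higher and lower ranged from 12 to 14 and 5 to 7 for resistant against parental DU145, 10 to 14 and 4 to 5 for PC3, 8 to 11 and 15 to 16 for the parental lines, 9 to 13 and 13 to 16 for the resistant lines, and 8 to 10 and 7 to 11 for the difference between the lines, the 11 with limma on log2(FPKM + 1). Fewer genes were tested with limma. Leaving out 1 library gave 10 to 13 and 5 to 7, 10 to 13 and 3 to 4, 10 to 11 and 15 to 16, 12 to 13 and 13 to 15, and 8 to 11 and 6 to 9 in the same order. Between the parental lines HOXA2 lost its call without the third parental DU145 library (1.05, adjusted p = 0.0565). Between the resistant lines HOXD8 (1.49 to 1.63) and HOXD9 (-4.33 to -3.79) lost theirs without some libraries, and without the filter on low counts HOXD9, HOXB3 in DU145 and HOXB7 in PC3 did. HOXC5 was called in all 5 comparisons without the second parental PC3 library, the only 1 of its group with counts. The difference between the lines changed sign for HOXB8 with limma on log2(FPKM + 1) (-0.11), and for HOXD9 on that scale (0.88) and without the second parental PC3 library (6.17, in a range of -4.06 to 6.17 over the libraries left out). For HOXB8 it also lost its call on log2(FPKM + 0.1). The cause was not tested. Upper-quartile scaling moved the median of all genes between the resistant lines to -0.12.

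Replicate numbers shared by the labels did not pair the libraries: deviations of same-numbered libraries correlated between -0.024 and 0.022, and a library correlated best with its own number in 10 of 36 cases. With the numbers as a replicate block the calls were 12 higher and 5 lower in DU145, 13 and 4 in PC3, 11 and 16 between the parental lines, 13 and 14 between the resistant lines, and 9 and 7 for the difference. HOXA4 (-2.08, adjusted p = 0.0503) and HOXD3 in DU145 and HOXC4 in PC3 (adjusted p = 0.0612) lost their calls, and HOXC5 gained them in PC3 (adjusted p = 0.0329) and between the parental lines (adjusted p = 0.0316).

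At a mean of 2 FPKM in place of 1, 8 members were expressed in parental DU145, 6 in parental PC3 and 9 in its resistant line, where 22 were at 1 CPM. In the order parental and resistant DU145, parental and resistant PC3, the cluster sums in CPM were HOXA 37.5, 65.0, 222 and 169, HOXB 95.1, 121, 28.9 and 26.6, HOXC 29.6, 37.9, 11.5 and 34.5, HOXD 4.40, 1.14, 4.80 and 5.04. Without the highest member they were, in FPKM, HOXA 9.62, 17.2, 35.4 and 30.8, HOXB 25.1, 36.4, 3.92 and 5.31, HOXC 6.30, 10.5, 1.80 and 8.48, HOXD 0.886, 0.244, 1.14 and 1.27. With only members that overlap no other gene in the deposited coordinates, over which HOXA was lower in resistant PC3 than in resistant DU145, they were HOXA 0.330, 1.71, 0.854 and 1.08, HOXB 0, 0.0189, 0 and 0, HOXC 0.0444, 0, 0 and 0, HOXD 0, 0, 0.501 and 0.228. Leaving out 1 library of a group gave HOXA 13 to 13.2, 21.5 to 22.6, 57.4 to 58.9 and 49.0 to 50.4, HOXB 40.7 to 43.2, 48.7 to 50.8, 8.26 to 8.99 and 8.61 to 8.78, HOXC 12.6 to 13, 16.0 to 17.9, 4.15 to 4.78 and 12.2 to 12.9, HOXD 2.31 to 2.60, 0.490 to 0.620, 2.40 to 2.91 and 2.59 to 2.73 FPKM, and 17 to 19, 18 to 19, 13 to 14 and 14 to 16 expressed members.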

Other observations

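Protein-coding genes within 500 kb of the clusters were counted in the same fits. Around HOXB, whose summed level in PC3 was within the parental spread, 10 of 12 flanking genes tested fell in resistant PC3 and none rose (median log2 difference -0.51), against 21.6% of all genes lower. NFE2L1, a transcription factor, fell there from 102 to 60.1 FPKM (-0.72 ± 0.03). Between the parental lines the same flank was higher in PC3 in 10 of 12 genes (median 0.57), against 30.9% of all genes higher, where all 8 tested HOXB members were lower. Around HOXC, 8 of 16 flanking genes fell and 2 rose in DU145, CBX5, the heterochromatin protein, falling from 41.9 to 14.8 FPKM (-1.48 ± 0.04), where 18.9% of all genes rose and 20.7% fell. In PC3, where 6 HOXC members rose, 6 of these 16 rose and 4 fell, against 22.4% and 21.6% of all genes. Of 3 tested beside HOXA, SKAP2 rose in DU145 (0.72 ± 0.06) and PC3 (0.47 ± 0.06), and HIBADH rose in DU145 (0.28 ± 0.08) and fell in PC3 (-0.29 ± 0.08). The list holds 2 clone-named genes that lie inside the clusters, and it was chosen with earlier results of these data known.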
